A study of Mus musculus with 14 samples.

Results

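The RNA of 7 genes from imprinted growth loci, H19, Igf2, Igf2r, Airn, Grb10, Gnas and Rasgrf1, was followed line by line in mouse embryonic stem (ES) cells. The 7 genes were taken by name from the deposited gene table, which holds 23298 genes, and all 7 are listed in it. The series comprised 14 lines, each derived from a single blastocyst of a cross between C57BL/6J (B) and CAST/EiJ (C) mice, with the strain of the mother named first. The XX and XY lines numbered 3 of each sex in either cross, and 2 further BC lines were XO, which had lost a sex chromosome spontaneously. All lines were grown without further treatment in serum with leukaemia inhibitory factor (LIF) on mitotically inactive embryonic fibroblasts, and most feeder cells were removed in 2 plating steps before total RNA was made into stranded libraries. No line carried a transgene or a deletion made for the study, and a single line stands for a single embryo.

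An imprinted gene is transcribed from the copy of 1 parent, because a differentially methylated control region differs between eggs and sperm. H19 is a maternally expressed noncoding RNA, and its neighbour Igf2 encodes a fetal growth factor made from the paternal copy. Igf2r encodes the receptor that carries the Igf2 protein to lysosomes and so limits growth, and Airn is the paternal noncoding RNA that starts inside Igf2r and runs against it. Grb10 encodes an adaptor that dampens insulin and IGF receptor signalling and is mostly maternal outside the brain. Gnas encodes the stimulatory G protein alpha subunit together with several alternative, imprinted first exons, and Rasgrf1 encodes a Ras exchange factor that is paternally expressed in brain. ES cells kept in culture can lose or gain imprinting marks, and lines therefore may differ in these genes from each other. The table holds 1 value per gene with no information on alleles, so that loss of imprinting was not measured here.

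In a reciprocal cross the strain of the active copy changes together with the cross. In BC lines a gene transcribed only from its maternal copy is read from the C57BL/6J copy and in CB lines from the CAST/EiJ copy. The reverse holds for a gene transcribed only from its paternal copy. Whether the genes followed here were restricted in this way in these lines was not measured. For another imprinted gene, the study observed expression from the maternal allele alone in BC cells, but only a maternal bias in CB cells. For an imprinted gene, a parent-of-origin effect, a strain difference of the active copy and the mapping of CAST/EiJ reads to a C57BL/6J genome cannot be told apart.

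The values are reads per gene that the authors scaled between lines. In each line 98.5% to 98.9% of values up to 200 steps were within 0.1 step of a whole multiple of a single step, and with a step taken as 1 read the BC lines held 24117818 to 69645409 reads and the CB lines 11904334 to 31997657. The CB lines were thus the shallower ones. Uty, a Y-linked gene, was at 945 to 2088 in the BC XY lines and at 1149 in CB XY 1, but only at 19.6 in CB XY 2 and at 45.4 in CB XY 3, within the range of the XX lines (12.8 to 195). Both lines keep the XY of their labels below. The calls of the members that include them are also given without them, as are some of the group differences. The mean log2 level of 29 fibroblast markers was 11.15 to 12.32 in the BC XX lines and 8.66 to 10.41 in the other 11 lines, and none of the 29 was at 0 in any line. The mean log2 level of 17 primitive endoderm markers, an extraembryonic lineage that ES cells can enter, was lowest in the CB XX lines (7.61 to 7.81) and CB XY 2 (7.81) and reached 8.71 in BC XX 3. In bulk RNA, fewer cells of a type and less RNA per cell cannot be told apart.

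On the mouse genome build used for the reads (mm9, NCBIM37), H19 lies at chr7:149761434-149764048 and Igf2 at chr7:149836673-149852721, both on the minus strand. H19 has 4 exonic blocks with 2372 bases in the GENCODE annotation. Its exons include the hairpin of a microRNA, miR-675, at chr7:149762969-149763052. The mature strands of miR-675 are shown because H19 is their precursor. The seed, bases 2 to 8, is in capitals, and the sequences are from RefSeq and were matched once each to mm9.
miR-675-5p: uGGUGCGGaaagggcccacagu
miR-675-3p: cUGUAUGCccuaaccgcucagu
The strands do not share a seed. Mir675 was listed at 0 in all 14 lines although H19 was at 3116 or more in every line, and Mir483, within Igf2, was also at 0 in all 14. Total RNA libraries of this kind do not retain molecules as short as a mature microRNA, and how reads in a hairpin inside a host gene were assigned is not given in the sources used here. A 0 for these entries is therefore not a measurement of the microRNA.

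Igf2r, at chr17:12875272-12962530 on the minus strand, and Airn, at chr17:12934177-13052988 on the plus strand, overlap by 28.4 kb. The overlap covers 32.5% of Igf2r and 23.9% of Airn and holds 4 exonic blocks of Igf2r, but no exonic base is shared by the pair in the annotation. The libraries were stranded, but the strand setting of the counting step is not given, so that reads of Igf2r and Airn in the overlap cannot be told apart with certainty.

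**Figure D1:**
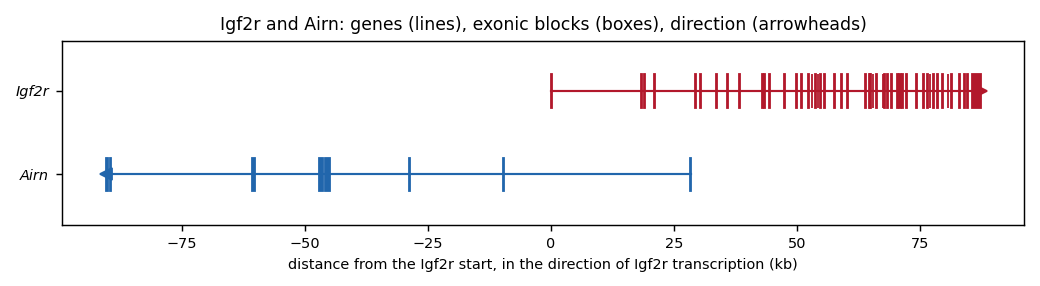
Map of Igf2r (red) and Airn (blue) on a scale of kb from the annotated start of Igf2r, with gene extents as lines, exonic blocks as boxes and the direction of transcription as arrowheads. Airn starts 28.4 kb inside Igf2r and runs out past its start, and the boxes of the 2 genes do not coincide.

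Promoter sequences are printed for 3 starts because they differ in the density of CG dinucleotides. Whether any of these windows lies in an imprinted control region was not examined, and the CG number of a window does not show it. Each runs from 250 bases before to 50 bases after the RefSeq start, with every CG in capitals, and each matched mm9 at 1 place. The Grb10 start, at chr11:11937374-11937673 on the minus strand, holds 45 CG in 300 bases, a number reached by 1.93% of the 32851 promoters of the same length, which have a median of 7.
Grb10 promoter: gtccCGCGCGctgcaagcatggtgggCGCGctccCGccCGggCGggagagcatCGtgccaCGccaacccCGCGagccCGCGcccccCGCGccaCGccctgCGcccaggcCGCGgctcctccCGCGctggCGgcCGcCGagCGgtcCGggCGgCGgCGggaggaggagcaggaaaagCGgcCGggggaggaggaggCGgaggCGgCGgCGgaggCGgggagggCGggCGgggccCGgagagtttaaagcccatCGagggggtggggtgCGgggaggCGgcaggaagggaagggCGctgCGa
The Igf2r start, at chr17:12962523-12962822 on the minus strand, holds 34 CG, reached by 7.73% of promoters.
Igf2r promoter: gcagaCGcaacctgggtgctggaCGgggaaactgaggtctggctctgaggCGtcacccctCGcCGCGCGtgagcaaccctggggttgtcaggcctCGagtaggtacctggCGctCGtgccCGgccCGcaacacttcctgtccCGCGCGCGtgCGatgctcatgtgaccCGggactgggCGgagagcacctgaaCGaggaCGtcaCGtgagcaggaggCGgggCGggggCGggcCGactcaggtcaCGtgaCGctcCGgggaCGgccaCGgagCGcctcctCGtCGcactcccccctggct
The Airn start, at chr17:12933927-12934226 on the plus strand, lies within the Igf2r gene and outside its exons, and holds 3 CG, reached by 76.7% of promoters.
Airn promoter: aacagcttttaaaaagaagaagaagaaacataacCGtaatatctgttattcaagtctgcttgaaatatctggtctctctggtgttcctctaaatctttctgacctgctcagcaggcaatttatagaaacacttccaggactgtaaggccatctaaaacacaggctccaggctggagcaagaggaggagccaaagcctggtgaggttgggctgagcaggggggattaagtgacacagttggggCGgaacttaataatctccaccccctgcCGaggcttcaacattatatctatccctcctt
Over the 7 genes, RefSeq promoters were given for 6, with 2 for Grb10 and 4 each for Igf2 and Gnas. Grb10 itself lies at chr11:11830511-11938686 on the minus strand, Gnas at chr2:174109821-174172245 and Rasgrf1 at chr9:89804613-89921814, both on the plus strand. The second Grb10 start holds 9 CG, and the 4 Gnas starts hold 16 to 40. The table does not separate starts, so each value below sums over all transcripts of a gene.

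The 7 genes spanned more than 3 orders of magnitude. Divided by exonic length in kb, the median over the 14 lines was 2246 for H19, 919 for Igf2r, 561 for Gnas, 535 for Grb10, 202 for Igf2, 7.02 for Airn and 0.635 for Rasgrf1. H19 was above Igf2r in 14 of 14 lines, by 1.17 to 5.52 times, and Igf2r was above Gnas in 14 of 14. Gnas and Grb10 did not have a fixed order, with Gnas the higher in 8 of 14 lines, and Grb10 was above Igf2 in 12 of 14. Igf2 was above Airn in 14 of 14 lines, by 26.4 to 45.1 times. Airn is known to be largely unspliced, so that reads in annotated exons hold only part of its RNA.

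**Figure D2:**
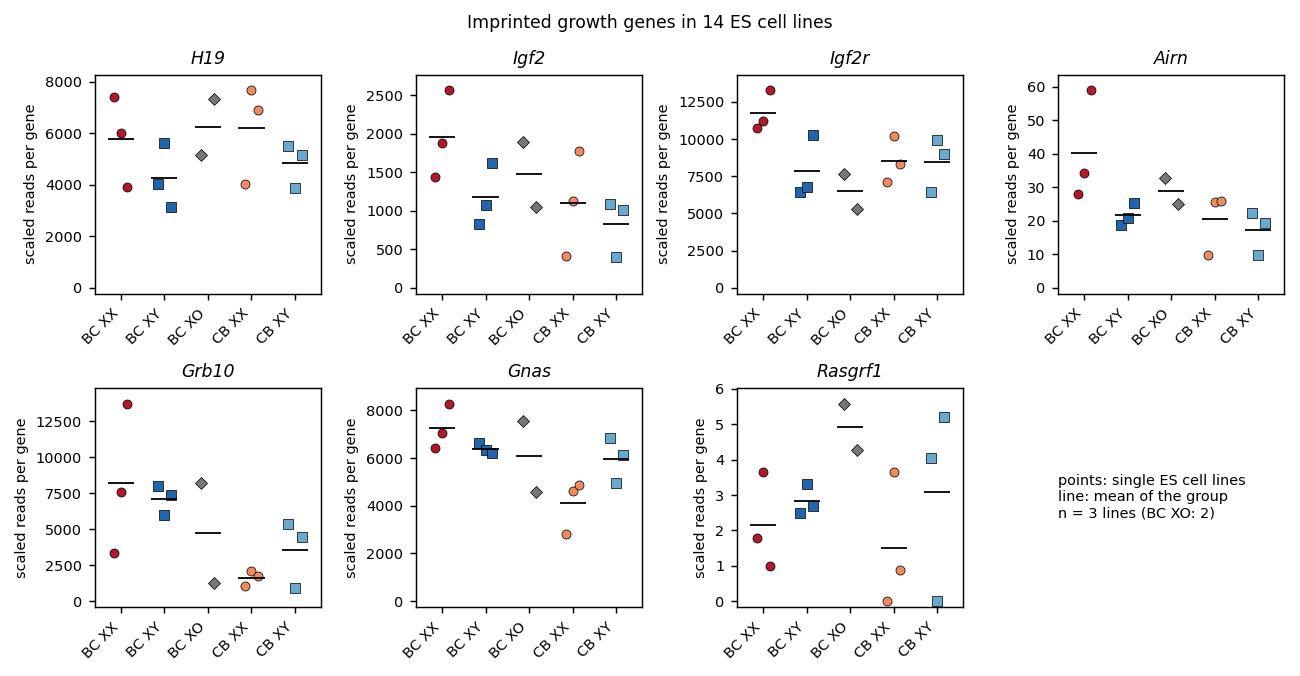
Scaled reads per gene (y axes, linear from 0) of the 7 genes in each of 14 ES cell lines (points), grouped by cross and sex chromosomes, with the group mean as a bar (n = 3 lines, 2 for BC XO). Grb10 lies at 1053 to 2084 in the CB XX lines and at 3357 to 13709 in the BC XX lines, whereas the H19 ranges of these groups overlap.

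H19 was abundant in every line. It was at 7409, 5986 and 3895 in the BC XX lines, 4014, 5619 and 3116 in the BC XY lines, 5143 and 7333 in the BC XO lines, 4037, 7658 and 6909 in the CB XX lines, and 5483, 3885 and 5170 in the CB XY lines. High and low lines occurred in each group, and no pair of groups was separated. The mean was 5982 ± 1664 (SD, n = 6) in XX lines and 4548 ± 1018 (SD, n = 6) in those labelled XY. The log2 fold change was 0.38 ± 0.20 (SE), with an adjusted p of 0.286. Here and below, log2 fold changes are on the scale of log2(value + 5), which understates the change of low genes, and p-values are from limma, adjusted by the Benjamini-Hochberg method over every gene tested. Between crosses, BC lines differed from CB lines by -0.16 ± 0.22 on the log2 scale (adjusted p = 0.684), with a 95% interval of -0.63 to 0.32. The BC XO lines were higher than BC XY lines by 0.57 ± 0.32 (adjusted p = 0.999).

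Igf2 was lower and varied more. Its values were 1445, 1884 and 2566 in the BC XX lines and 829, 1077 and 1622 in the BC XY lines. The BC XO lines were at 1892 and 1054. In the CB cross it was at 408, 1133 and 1782 in the XX lines and at 1091, 398 and 1007 in the XY lines. The lowest values, 398 in CB XY 2 and 408 in CB XX 1, were in the CB cross, and the highest, in BC XX 3, was 6.45 times the lowest. The SD within groups was 0.73 on the log2 scale, at or above that of 95.8% of the 16261 genes tested. Igf2 differed between crosses by 0.80 ± 0.37 (adjusted p = 0.182) and between XX and XY lines by 0.53 ± 0.40 (adjusted p = 0.454), neither past the threshold of 0.05. Between the XX lines alone, BC exceeded CB by 1.02 ± 0.49 (adjusted p = 0.198). With the fibroblast level as a covariate that difference was -0.17 (adjusted p = 0.948). BC XX and CB XX lines do not overlap in that level, so this fit cannot tell it apart from the groups.

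The values of H19 and Igf2, which share an enhancer region and are read from opposite parental copies, were not strongly related over the 14 lines (Pearson r = 0.23, a description over lines that share groups). The ratio of H19 to Igf2 per kb ranged from 3.52 in BC XX 3 to 22.9 in CB XX 1, with a median of 11.8.

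Igf2r was highest in the BC XX lines. It was at 10732, 11218 and 13278 there, at 6457, 6748 and 10285 in the BC XY lines and at 7680 and 5285 in the BC XO lines. In the CB cross the XX lines had 7098, 10229 and 8308 and the XY lines 6430, 9940 and 9030. The 3 BC XX lines were above all other 11 lines, and the CB groups overlapped. Against BC XY lines the log2 fold change was 0.61 ± 0.22 (adjusted p = 0.118), and against BC XO lines it was 0.88 ± 0.25 (adjusted p = 0.0577), so that neither passed the threshold. The groups did not overlap in either comparison, which was also true of 27.1% and 47.2% of all genes tested. Against CB XX lines the log2 fold change was 0.47 ± 0.22 (adjusted p = 0.193). The comparison with BC XO lines passed in 2 of 14 fits with a single line left out (adjusted p of 0.0403 without BC XY 3 and 0.0481 without CB XX 1). When the fibroblast level was added as a covariate, the log2 fold changes were 0.72 (adjusted p = 0.618) against BC XY and 0.96 (adjusted p = 0.324) against BC XO lines. That level separates the BC XX lines from all others, so these fits cannot tell it apart from the group, and a cause was not tested. Over all 12 XX and XY lines, Igf2r differed by sex by 0.32 ± 0.17 (adjusted p = 0.289) and by cross by 0.17 ± 0.18 (adjusted p = 0.580).

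Airn was scarce. It was at 28.0, 34.2 and 58.9 in the BC XX lines, 18.7, 20.8 and 25.4 in the BC XY lines and 32.7 and 24.9 in the BC XO lines. The CB XX lines had 9.95, 25.6 and 25.8 and the CB XY lines 22.2, 9.82 and 19.5. In reads these are 15 to 84 in the BC lines and 4 to 29 in the CB lines, so that the low CB values rest on few reads. The lines with the lowest Airn, CB XY 2 and CB XX 1, were those with the lowest Igf2. Airn in BC XX lines was above BC XY lines by 0.72 ± 0.36 (adjusted p = 0.248) and above CB XX lines by 0.85 ± 0.36 (adjusted p = 0.148), with no overlap in either, as for 27.1% and 26.8% of all genes. Between crosses the log2 fold change was 0.58 ± 0.29 (adjusted p = 0.210) and between sexes 0.44 ± 0.30 (adjusted p = 0.397). Igf2r and Airn, the receptor gene and the antisense RNA that is known to silence its paternal copy, had a Pearson r of 0.43 over the lines. Igf2r exceeded Airn per kb by 80.6 times in BC XO 2 and by 384 times in CB XY 2.

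Grb10 differed most between crosses. It was at 3357, 7549 and 13709 in the BC XX lines and at 7967, 5978 and 7335 in the BC XY lines. It was at 1053, 2084 and 1719 in the CB XX lines and at 5366, 941 and 4436 in the CB XY lines. The 4 lowest of these 12 values were those of the CB XX lines and CB XY 2, and all BC XX lines were above all CB XX lines. The mean was 7649 ± 3410 (SD, n = 6) in BC lines and 2600 ± 1855 (SD, n = 6) in CB lines. The log2 fold change was 1.75 ± 0.43 (SE), a 95% interval of 0.83 to 2.66, with an adjusted p of 0.0367. It was 1 of 6 tested members past the threshold in this comparison, against 5.57% of all genes. The BC lines were higher in each fit with a line left out, by 1.51 to 2.02, but only 6 of these 12 fits passed (adjusted p from 0.0333 to 0.0916). Leaving out BC XX 2, BC XX 3, BC XY 1, CB XX 1, CB XX 2 or CB XY 2 each lost the call. Without both CB XY 2 and CB XY 3, the log2 fold change was 1.73 (adjusted p = 0.114), in a fit where only 4 of all genes tested passed. The adjusted p of the other 5 tested members in the cross comparison was then at most 0.548, with none past the threshold. With the level of fibroblast markers as a covariate the log2 fold change of Grb10 was 1.52 (adjusted p = 0.0640). With the level of primitive endoderm markers it was 0.99 (adjusted p = 0.265). Of all genes tested, 438 and 4 passed in these fits. The primitive endoderm level was lower in the CB XX lines than in all BC lines, so it is partly confounded with the cross, and a cause was not tested.

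Within sexes, Grb10 was higher in BC than in CB lines by 2.17 ± 0.69 among XX lines (adjusted p = 0.0702) and by 1.32 ± 0.69 among XY lines (adjusted p = 0.329), without overlap in either. Without CB XY 2 and CB XY 3 the difference among XY lines was 0.39 (adjusted p = 0.897), a fit in which the lone CB XY line is assumed to vary like the other groups. Groups did not overlap for 26.8% of all genes in each of these comparisons. The difference among XX lines passed in 4 of 14 fits with a line left out, with an adjusted p as low as 0.0321, and was 1.69 (adjusted p = 0.326) without BC XX 3. XX and XY lines had overlapping values, with a log2 fold change of -0.43 ± 0.62 (adjusted p = 0.711) and a wide 95% interval of -1.76 to 0.90. In the CB cross alone the difference was -0.86 ± 0.69 (adjusted p = 0.548), and it was -0.39 without CB XY 1, -1.64 without CB XY 2 and -1.78 without CB XY 2 and CB XY 3 (adjusted p = 0.405).

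The BC XO lines disagreed in Grb10. BC XO 1 had 8234 and BC XO 2 had 1267, a 6.50-fold difference between lines of the same group. The log2 fold change of BC XX over BC XO was 1.12 ± 0.78 (adjusted p = 0.405), and it was -0.23 without BC XO 2 and 2.47 without BC XO 1. Against BC XY lines the XO lines differed by -1.12 ± 0.78 (adjusted p = 0.999), and by 0.23 without BC XO 2. Low Grb10 thus occurred in a BC line as well as in CB lines. The 5 lowest values of the 14 lines were those of BC XO 2, CB XX 1, CB XX 2, CB XX 3 and CB XY 2. The SD of Grb10 within groups was 1.06 on the log2 scale, at or above that of 99.6% of all genes tested, where the median was 0.32. The lowest Grb10 value rested on 383 reads, so that read counting was not the limit.

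Gnas was more even. It was at 6436, 7036 and 8285 in the BC XX lines, 6634, 6339 and 6211 in the BC XY lines and 7575 and 4596 in the BC XO lines. The CB XX lines had 2829, 4616 and 4885 and the CB XY lines 6830, 4956 and 6150. The CB XX lines were below all BC XX and BC XY lines and below all CB XY lines. BC XX exceeded CB XX by 0.85 ± 0.22 on the log2 scale (adjusted p = 0.0364), which made Gnas 1 of 6 tested members past the threshold there, against 7.15% of all genes. The call was lost without BC XX 2, BC XX 3, BC XY 2, CB XX 1, CB XX 2 or CB XY 3 (0.60 to 0.96, adjusted p from 0.0515 to 0.184), and without both CB XY 2 and CB XY 3 (0.85, adjusted p = 0.0555). With the fibroblast level as a covariate the log2 fold change was 0.29 (adjusted p = 0.797), and with the primitive endoderm level it was 0.13 (adjusted p = 0.944). BC XX and CB XX lines do not overlap in either level, so these fits cannot tell the levels apart from the groups. Of all genes tested, 45 and 0 passed in these fits, and a cause was not tested. CB XX against CB XY lines gave a log2 fold change of -0.57 ± 0.22 (adjusted p = 0.183), without overlap, as for 23.2% of all genes, and -0.77 without CB XY 2 and CB XY 3 (adjusted p = 0.340). The difference of the XX against XY effect between crosses was 0.74 ± 0.31 for Gnas (adjusted p = 0.492) and 0.59 ± 0.31 for Igf2r (adjusted p = 0.617), and passed for 0 of the 6 members, against 0.0738% of all genes. Without CB XY 2 and CB XY 3 it was 0.95 for Gnas (adjusted p = 0.637) and 0.22 for Igf2r (adjusted p = 0.973). At an unadjusted p under 0.05 it was 1 of 6, Gnas, against 9.05% of all genes. Over both crosses Gnas differed by cross by 0.48 ± 0.18 (adjusted p = 0.106) and by sex by -0.20 ± 0.21 (adjusted p = 0.603). Nespas, an antisense RNA that overlaps the start of Gnas, was at 270 to 876, and its reads cannot be told apart from those of Gnas with certainty.

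Rasgrf1 was at the limit of detection. It was at 0 in CB XX 1 and CB XY 2 and at most 5.58, in BC XO 1, which corresponds to 0 to 9 reads. The group means were 2.14 in BC XX, 2.83 in BC XY, 4.93 in BC XO, 1.51 in CB XX and 3.08 in CB XY lines. A value of 10 was not reached in any line, so the gene entered the test only when the filter on low values was left out, and the adjusted p was then 0.381 or more in each of 9 comparisons. No difference between groups was detectable at this depth, where 3 reads correspond to values from 1.22 to 7.37 depending on the line.

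Between XX and XY lines, 0 of the 6 tested members passed the threshold, against 5.21% of all genes, and 0 had an unadjusted p under 0.05, against 23.1%. Without CB XY 2 and CB XY 3 the adjusted p-values of the members were 0.271 to 0.806. The count was also 0 of 6 in BC XX against BC XY lines, against 5.7% of all genes, with 1 of 6 (Igf2r) at an unadjusted p under 0.05, against 23.1%. In CB XX against CB XY lines it was 0 of 6 beside 3.57%, with 1 of 6 (Gnas) unadjusted beside 18.6%. In BC XX against BC XO lines it was 0 of 6 beside 4.66%, with 1 of 6 (Igf2r) unadjusted beside 23.7%. In BC XO against BC XY lines it was 0 of 6 beside 0.00615%, with 0 unadjusted beside 1.49%, and in BC XY against CB XY lines it was 0 of 6 beside 0.64%, with 0 unadjusted beside 18.7%. With the fibroblast level as a covariate, Gnas was lower in XX lines by 0.72 (log2 fold change -0.72, adjusted p = 0.0157), and with the cross as a further covariate Grb10 was lower as well (-1.44, adjusted p = 0.0401). These adjusted fits rest on a level that separates BC XX lines from all others.

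**Figure D3:**
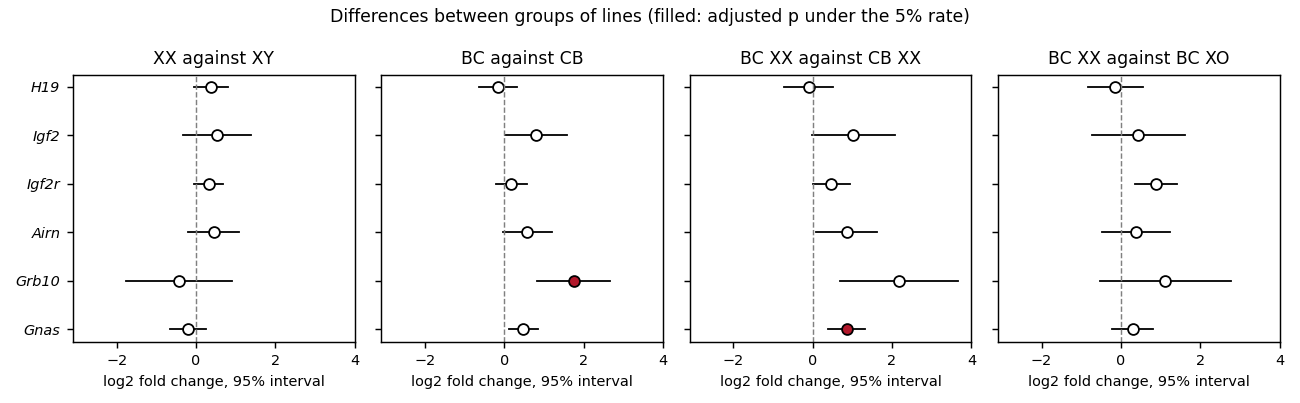
Log2 fold changes on the scale of log2(value + 5) (x axes) with 95% intervals (lines) of 6 members in 4 comparisons, positive where the group named first was higher, with filled points for an adjusted p under 0.05 in limma. Filled points are Grb10 in BC against CB (1.75) and Gnas in BC XX against CB XX (0.85).

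Markers of other cells moved with several members over the 14 lines. The fibroblast level was related to Airn (Pearson r = 0.786, permutation test, two-sided p = 0.00088, adjusted over 12 relations 0.00352; Spearman rho = 0.688, p = 0.00824, adjusted 0.0247) and to Igf2 (r = 0.665, permutation p = 0.00987, adjusted 0.0197; rho = 0.543, p = 0.0483, adjusted 0.0967). Without BC XX 2 and BC XX 3, the lines farthest from the median, r was 0.591 and 0.494, and in the 11 lines other than BC XX it was 0.561 and 0.468. H19, with r = 0.358 over all lines (permutation p = 0.208, adjusted 0.250; rho = 0.512, p = 0.0639, adjusted 0.110), had r = 0.749 in those 11 lines and 0.329 within groups, as deviations from group means. The BC XX lines stand apart in this level, so that the pooled values mix separate sets of lines. The permutations, here and for primitive endoderm, shuffled all 14 lines without regard to their groups. Their p-values can therefore be too small. Without the 2 farthest lines r was 0.081 for Igf2r, 0.118 for Grb10 and 0.268 for Gnas, and within groups it was -0.101, 0.634 and 0.678.

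The primitive endoderm level, which shares genes with fibroblasts such as Sparc and Col4a1, was related to Gnas (r = 0.840, permutation p = 0.00011, adjusted 0.00132; rho = 0.846, p = 0.00023, adjusted 0.00276) and to Grb10 (r = 0.771, permutation p = 0.0015, adjusted 0.00415; rho = 0.732, p = 0.00412, adjusted 0.0247). Without BC XX 3 and CB XX 1, the farthest lines, r was 0.772 for Gnas and 0.631 for Grb10. Within groups, as deviations from group means, r was 0.772 for Gnas and 0.883 for Grb10. Airn and Igf2 had r of 0.806 and 0.749 (permutation test, adjusted p = 0.00216 and 0.00415), Igf2r had 0.309 and H19 had -0.066. Within groups Airn and Igf2 had 0.857 and 0.813, beside 0.718 and 0.593 with the fibroblast level. Airn and Igf2 were thus not particular to either level. With the primitive endoderm level as a covariate the cross differences of Grb10 and Gnas took the values given above. The markers of this list did not move as one. In BC XX against CB XX lines 10 of 15 tested had a positive log2 fold change, and 7 passed, all higher in BC XX, beside 7.15% of all genes called. Gata6, a defining gene of primitive endoderm, was at 8.53 to 41.8 in CB XX lines and at 145 to 243 in BC XX lines, whereas Pdgfra, another marker of that lineage, was at 449 to 1161 in CB XX and at 197 to 410 in BC XX lines.

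**Figure D4:**
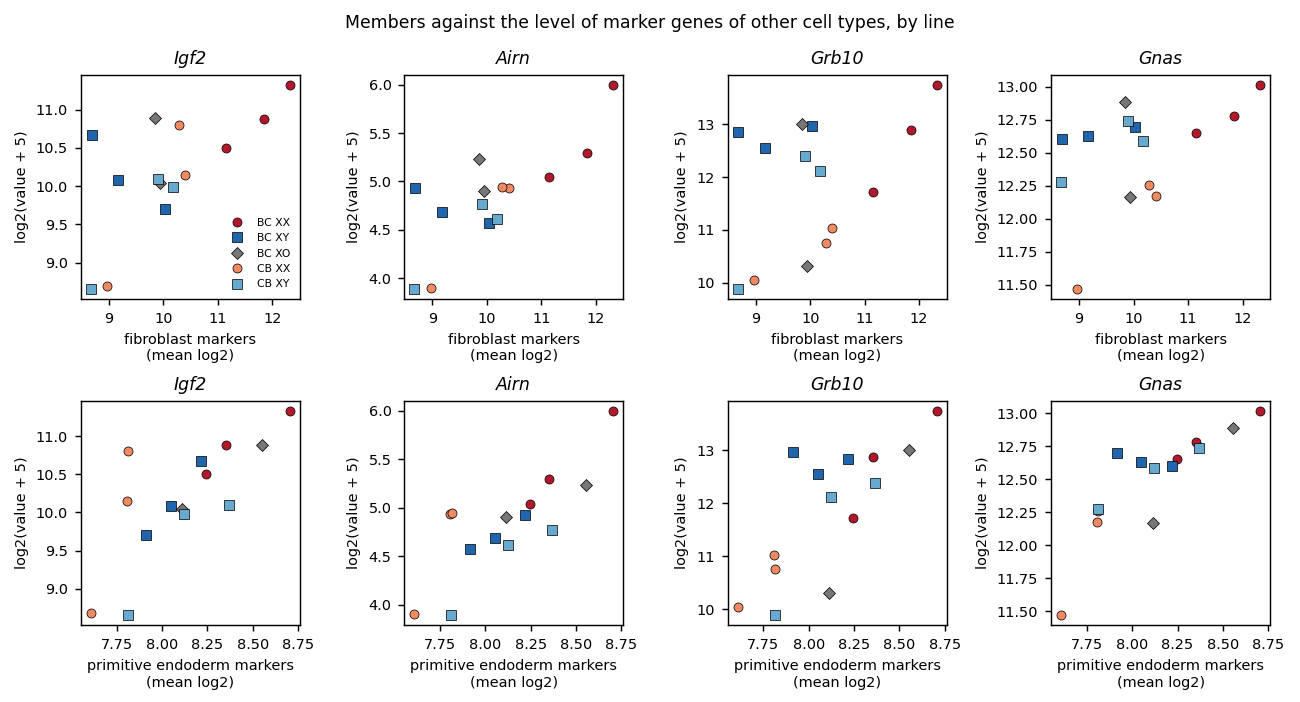
Log2(value + 5) of Igf2, Airn, Grb10 and Gnas (y axes) in each line against the mean log2 level of 29 fibroblast markers (upper row) and of 17 primitive endoderm markers (lower row), with symbols by group. BC XX lines lie to the right in the upper row (11.15 to 12.32), and CB XX lines (7.61 to 7.81) lie to the left in the lower row together with CB XY 2 (7.81).

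The genes most like each member over the 14 lines, by Pearson r of log2(value + 5) over 16261 genes, included other members. For Igf2 the most similar gene was Airn (r = 0.948), followed by Sept8 (0.940) and Tmem176b (0.917). For Airn they were Ifngr2 (0.957), Igf2 (0.948) and Hipk3 (0.944). For Grb10 they were Rab13 (0.917), Gnas (0.869) and Prkd1 (0.858), and for Gnas they were Bin3 (0.921), Snn (0.901) and Gata6 (0.899). H19 was most like Nanos3 (0.834), BC048679 (0.824) and Cbx8 (0.806), and Igf2r was most like Wipi1 (0.940), Spata6 (0.920) and Gdpd1 (0.915). Igf2 and Airn lie on chromosomes 7 and 17, and Grb10 and Gnas on chromosomes 11 and 2. The lines share their groups and marker levels, so these values are descriptions.

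The other genes of IGF signalling were taken as lists. Of the ligands and receptors beside Igf2 and Igf2r (Igf1, Igf1r, Insr, Insrr, Ins1 and Ins2), 3 were tested and none passed in any comparison. Igf1r, the receptor through which Igf2 promotes growth, was at 1525 to 3275, and its log2 fold change between crosses was 0.06 ± 0.20 (adjusted p = 0.879). Ins1 was at 0 in all lines. The 29 adaptors and kinases had a list median of -0.01 in BC against CB lines, beside 0.01 over all genes. In that comparison 3 were lower and 0 higher in BC lines, beside 5.57% of all genes called. They were Pik3r2, a regulatory subunit of PI3 kinase (-1.29 ± 0.22, adjusted p = 0.0137), Foxo3, a transcription factor held back by AKT (-0.92 ± 0.15, adjusted p = 0.0112), and Eif4ebp1, a repressor of translation that mTOR inactivates (-0.82 ± 0.16, adjusted p = 0.0226). All 6 BC values of each lay below all 6 CB values, as held in either direction for 2.85% of all genes. When CB XY 2 and CB XY 3 were left out, 0 of the 29 passed between crosses, but only 4 of all genes tested did. The sizes changed little, with Pik3r2 at -1.26 ± 0.27 (adjusted p = 0.0961), Foxo3 at -0.85 ± 0.18 (adjusted p = 0.0916) and Eif4ebp1 at -0.92 ± 0.19 (adjusted p = 0.0816). Between XX and XY lines 1 of 29 passed, beside 5.21% of all genes called. It was Pdk1, which encodes a pyruvate dehydrogenase kinase and not the kinase of IGF signalling encoded by Pdpk1. Pdk1 was lower in XX lines (-0.82 ± 0.12, adjusted p = 0.00174, and -0.79 ± 0.13, adjusted p = 0.00964, without CB XY 2 and CB XY 3).

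Of 10 IGF binding proteins and their proteases tested, 5 were higher in BC XX than in BC XY lines and 0 lower, beside 5.7% of all genes called, with a list median of 1.17 beside -0.04 over all genes. The largest were Pappa, a protease that frees IGF from binding proteins (4.45 ± 0.64, adjusted p = 0.00263), and Igfbp7 (3.96 ± 0.51, adjusted p = 0.00123), followed by Igfbp5 (2.13 ± 0.47, adjusted p = 0.0191) and Htra1 (1.81 ± 0.50, adjusted p = 0.0480). In the same comparison 19 of 29 fibroblast markers were higher and 0 lower. When the fibroblast level was a covariate, 0 of the 10 binding proteins and proteases passed, but only 8 of all genes tested did. That level separates the BC XX lines from all others, so this fit cannot tell it apart from the group, and a cause was not tested. Pappa was then at 1.26 ± 0.53 (adjusted p = 0.464), Igfbp7 at 1.69 ± 0.54 (adjusted p = 0.295) and Igfbp5 at 0.55 ± 0.67 (adjusted p = 0.866). Htra1 was at 2.61 ± 0.86 (adjusted p = 0.311), a larger difference with a larger error than without the covariate. Without CB XY 2 and CB XY 3, which entered the shared estimate of the spread, Htra1 did not pass (adjusted p = 0.0518). Against CB XX lines 3 of 10 binding proteins were higher, beside 16 of 29 fibroblast markers and 7.15% of all genes called. Between all XX and XY lines 0 of 9 passed.

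Igf2 RNA-binding proteins, which bind Igf2 transcripts among others, were abundant, with Igf2bp1 at 17894 to 32008. Igf2bp1 was lower in BC XX than in BC XO lines (-0.75 ± 0.17, adjusted p = 0.0317), where 4.66% of all genes were called. No other of the 5 listed genes passed in any comparison. Of 13 factors that maintain imprints, such as Zfp57 and Trim28, 1 passed between XX and XY lines, beside 5.21% of all genes called. It was the X-linked Atrx, which was higher in XX lines (0.86 ± 0.13, adjusted p = 0.00201, and 0.88 ± 0.15, adjusted p = 0.0118, without CB XY 2 and CB XY 3). Between crosses 0 of 13 passed. Of 11 partners of the Gnas protein, such as the adenylyl cyclases, none passed in any comparison. Among 10 Ras exchange factors and Ras proteins, 1 passed between crosses, beside 5.57% of all genes called. It was Rasgrp2, which was lower in BC than in CB lines (-1.31 ± 0.35, adjusted p = 0.0449). Rasgrp2 did not pass without CB XY 2 and CB XY 3 (-1.07 ± 0.39, adjusted p = 0.191), in a fit where only 4 of all genes tested passed. The Igf2bp1 difference did not pass without those lines (-0.75 ± 0.19, adjusted p = 0.0556) or with the fibroblast level as a covariate (-0.65 ± 0.25, adjusted p = 0.336), while its size changed little.

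Genes within 500 kb of the members were compared as well. Of 8 tested near H19 and Igf2, Lsp1 and Ctsd were higher in BC XX than in BC XY lines (1.88 ± 0.38, adjusted p = 0.0121, and 0.60 ± 0.15, adjusted p = 0.0323). In that comparison 5.7% of all genes were called. Near Rasgrf1, Tmed3 was higher by 1.67 ± 0.35 (adjusted p = 0.0152). None of these neighbours passed in that comparison once the fibroblast level was a covariate, but only 8 of all genes tested did. That level separates the BC XX lines from all others, so this fit cannot tell it apart from the group. Lsp1 was then at 0.26 ± 0.42 (adjusted p = 0.906) and Tmed3 at 0.03 ± 0.35 (adjusted p = 0.993). Ctsd kept its size with a larger error (0.63 ± 0.27, adjusted p = 0.484). Between crosses, and between all XX and all XY lines, 0 of the tested neighbours of any member passed. Slc22a2 and Slc22a3, placental targets of Airn, were at 0 to 6.88 in all lines and were not tested.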

How the data were processed

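The authors deposited 1 table with a read signal per gene and line, which they had scaled between lines before deposit, so that the lines sum to 28150946 to 30657803. Per the study's methods, single-end reads of stranded total RNA were aligned to mm9 with TopHat2 and compared with the Cufflinks suite, and the versions, the annotation, the strand setting and the division of lines among library batches are not given in the sources used here. Scaling and steps per line were read from the values. Counting error therefore differs between lines, and p-values measure the spread between lines.

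Values were taken as log2(value + 5). Genes were tested with a value of 10 or more in 6 lines (XX against XY and BC against CB, 12 lines, no covariate) or in 2 lines (models of 5 groups, 14 lines, which share 1 estimate of the spread). Set aside were 15 genes with a 0 throughout a group but with 100 or more in other lines. The test was limma 3.58.1 in R 4.3.3 with a trended prior and Benjamini-Hochberg adjustment, at an FDR of 0.05. The CB XX lines are numbered by column order, since their numbers differ from those of the labels. Named genes are the 7 members, Uty, up to 4 genes of a list past the threshold with the largest change, and the 3 genes most like each member. Others (Gata6, Igf1r, Ins1, Nespas, Pdgfra, Slc22a2, Slc22a3) were named after their values were seen. Members, lists and tests were chosen with earlier results of these data known. Positions are from GENCODE vM1 on NCBIM37, and sequences are from RefSeq (GRCm38.p6), placed on NCBIM37 by exact match. Relations over lines used 100000 permutations in Python. The steps were tested on simulated data. Alternatives were another pseudocount, no filter, TMM factors, an FDR of 0.01, covariates, a replicate block and lines left out. A count test was not run, because the scaled values could not be turned back into whole reads for every gene. Groups of 2 or 3 lines limit the precision, and Airn and Rasgrf1 also rest on few reads.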

Additional observations from a re-analysis of the deposited data

Results flagged for a closer look

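Among the 6 lines labelled XY, CB XY 2 stood apart as the lowest for 3 members by the gap to its nearest neighbour relative to the whole range (log2 scale, Dixon's test). Its value was 9.82 for Airn, 941 for Grb10 and 4956 for Gnas. Chance alone flags about 1 in 20 such groups, and 28 groups of 6 lines were examined. The groups share lines, and the 3 members were related over the 14 lines (Pearson r of 0.683 to 0.869), so the 3 flags are not independent. CB XY 2 was also the line with the fewest reads, 11904334, and its Uty value, 19.6, was within the range of the XX lines.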

How the results depend on the processing

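Of the 28 member differences, 229 of the 255 alternative values that left out no single line kept their direction and side of the threshold. The Grb10 difference between BC and CB lines stayed positive throughout, and the count of members past the threshold there was 1, and 0 without the filter, at an FDR of 0.01, with the fibroblast or the primitive endoderm level as a covariate, and without CB XY 2 and CB XY 3. In BC XX against CB XX lines the count, 1, was likewise 0 under the same 5 settings. In XX against XY lines it was 1 with the fibroblast level and 2 with fibroblast level and cross (the latter added after seeing the data). With lines left out the counts were 0 to 1 (BC against CB), 0 to 2 (BC XX against CB XX) and 0 to 1 (BC XX against BC XO).

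Log2 fold changes turned in sign, none past the threshold on either side, as follows. With the fibroblast level, Airn was -0.17 and Igf2 -0.24 in XX against XY lines, Airn -0.44 in BC XX against BC XY, Grb10 -0.72 in BC XX against BC XO, and Airn -0.026 and Igf2 -0.17 in BC XX against CB XX. With fibroblast level and cross, Airn was -0.070 and Igf2 -0.087 in XX against XY. With the primitive endoderm level (added after seeing the data), Airn was -0.33, Grb10 -0.75 and Igf2 -0.83 in BC XX against CB XX, Grb10 0.65 in CB XX against CB XY, and Gnas -0.026 in the interaction. With lines left out, Grb10 ranged from -0.23 to 2.47 in BC XX against BC XO and from -2.47 to 0.23 in BC XO against BC XY. In each of these the cause was not tested.

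Gnas in BC XX against CB XX lines kept its sign in every alternative run, with an adjusted p of 0.0155 to 0.944, and of 0.0592 without the filter. For Grb10 in BC against CB lines it was 0.0558 without the filter and 0.0189 with the sex as a covariate. The replicate numbers did not pair the lines (15 pairs of the same number, r of deviations from group means -0.494 to 0.270, 4 over 0.1). With a replicate block in the 11 lines whose numbers the labels give, the count of members was 0 in BC XX against BC XY and Grb10 in BC XY against CB XY was 1.32 (adjusted p = 0.270), with 368 genes called instead of 104, and 332 instead of 758 in BC XX against BC XO. Over all genes, the 797 calls of XX against XY lines became 183 at an FDR of 0.01, 514 with the fibroblast level, 1619 with the primitive endoderm level, 1697 with cross as a covariate and 313 without CB XY 2 and CB XY 3. The 853 of BC against CB became 424 without the filter, 20 at an FDR of 0.01, 438 with the fibroblast level, 4 with the primitive endoderm level, 2043 with the sex and 4 without those lines. In BC XX against BC XY, 927 became 195, 8 and 124 (FDR, fibroblast and primitive endoderm). In BC XX against CB XX, 1162 became 586 without the filter, 150, 45 and 0 by the same 3, and 657 without those lines. In BC XY against CB XY, 104 became 2 without them and 972 with the fibroblast level. The count test on reads was not run. Depth limits Airn and Rasgrf1.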

Other observations

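Some other imprinted genes passed between XX and XY lines, where 5.21% of all genes were called in either direction. Of 21 maternally expressed genes tested, 3 were lower in XX lines and 0 higher, namely Phlda2, a restrainer of placental growth (-1.99 ± 0.22, adjusted p = 0.000705 in limma), Cdkn1c, an inhibitor of the cell cycle (-1.27 ± 0.26, adjusted p = 0.0158), and Slc22a18 (-1.61 ± 0.35, adjusted p = 0.0177). Of 25 paternally expressed genes, 4 were higher in XX lines, namely Peg12 (1.03 ± 0.21, adjusted p = 0.0141), Ndn (0.82 ± 0.18, adjusted p = 0.0206), Zrsr1 (0.82 ± 0.11, adjusted p = 0.00149) and Mcts2, and Nnat was lower (-0.95 ± 0.24, adjusted p = 0.0338). Without CB XY 2 and CB XY 3, 1 of the 21 was lower, Phlda2 (adjusted p = 0.00353), and 2 of the 25 were higher, Peg12 (adjusted p = 0.0313) and Zrsr1 (adjusted p = 0.0132). Of all genes tested 313 passed in that fit, instead of 797. Cdkn1c (-1.25), Slc22a18 (-1.53), Ndn (0.73), Mcts2 (0.53) and Nnat (-0.76) kept their sign without passing. Phlda2, Cdkn1c and Zrsr1 passed with the fibroblast level as a covariate, and Slc22a18 (-1.14 ± 0.39), Peg12 (0.81 ± 0.25), Ndn (0.50 ± 0.18), Mcts2 (0.50 ± 0.18) and Nnat (-1.04 ± 0.30) did not, each with the sign it had without the covariate. The list medians were -0.02 and 0.34, beside -0.03 over all genes. Phlda2, Cdkn1c and Slc22a18 lie on the same chromosome as H19 and Igf2, where no member was called by sex.

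Between crosses 0 of 21 maternally and 1 of 25 paternally expressed genes passed, beside 5.57% of all genes called. It was Sgce, which was higher in BC lines (0.81 ± 0.22, adjusted p = 0.0466). Without CB XY 2 and CB XY 3 Sgce was at 0.75 (adjusted p = 0.179), in a fit where only 4 of all genes tested passed. Of the marker lists not described above, 3 of 12 ES cell markers were lower and 1 of 11 trophoblast markers was higher in BC than in CB lines, beside 5.57% of all genes called. None of these 4 passed without CB XY 2 and CB XY 3, but only 4 of all genes tested did. Their log2 fold changes were then -0.76 for Klf4, -0.66 for Sox2, -1.66 for Utf1 and 2.09 for Krt18 (adjusted p of 0.120 to 0.180). Of 7 muscle markers 1 was higher in BC XX than in BC XY lines, beside 5.7% of all genes called.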
